A study of Mus musculus with 10 samples.

Results

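Bone morphogenetic proteins (BMPs) and growth and differentiation factors (GDFs) are secreted ligands of the TGF-beta superfamily, and transcripts of 10 genes that encode them were followed here in the anterior fontanelle (AF) of the embryonic mouse skull. The members were taken by symbol from the deposited gene table: *Bmp2*, *Bmp3*, *Bmp4*, *Bmp5*, *Bmp6*, *Bmp7*, *Bmp8a*, *Gdf5*, *Gdf6* and *Gdf10*. All 10 were among the 23080 genes of the table. The AF is the soft, unossified gap between the growing frontal and parietal bones. The tissue was collected at E18.5 as the AF with its connective tissue and the adjoining bone, without skin and brain according to the study's methods. Bulk RNA-seq libraries came from 5 samples labelled WT and from 5 labelled Wnt1-Cre; Fgfr2fl/fl. In the second group Cre recombinase is driven by *Wnt1* regulatory sequence and removes the floxed *Fgfr2* allele in neural crest cells and their descendants, so cells of other origin in the same dissection keep the gene. The paper calls the controls littermates, and the labels do not give their Cre or floxed allele status beyond WT.

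The BMP ligands are made as precursors, cut by proteases of the furin family and released as dimers. Many of them bind pairs of type I and type II serine/threonine kinase receptors, which phosphorylate SMAD1, SMAD5 and SMAD9 so that these enter the nucleus with SMAD4. Secreted antagonists such as Noggin bind the ligands and keep them from the receptors. In the skull vault, BMP signals act on suture mesenchyme and on osteoblasts at the bone fronts, and BMP ligands were first known for inducing ectopic bone.

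One pair of near-identical sequences bears on what a count of *Bmp8a* means. *Bmp8a* lies on chromosome 4 near its paralog *Bmp8b*, and with single reads of 50 bases a read from their common stretches cannot be given to 1 gene. The longest identical run between their transcripts had 182 bases and the next had 125 bases, all of it coding. The 200 bases below cover the junction between these runs. They are shown 5′ to 3′ on the transcript strand from the GENCODE M21 transcripts, with the 1 base that differs in capitals. In *Bmp8a* they span exons 2 to 3 with the intron between them left out (GRCm38 chr4:123324675-123325263, minus strand), and in *Bmp8b* also exons 2 to 3 (GRCm38 chr4:123114593-123115180, plus strand).
Bmp8a: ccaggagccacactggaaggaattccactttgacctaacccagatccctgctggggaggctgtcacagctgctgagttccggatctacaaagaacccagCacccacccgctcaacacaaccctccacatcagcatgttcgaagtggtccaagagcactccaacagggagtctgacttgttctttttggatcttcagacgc
Bmp8b: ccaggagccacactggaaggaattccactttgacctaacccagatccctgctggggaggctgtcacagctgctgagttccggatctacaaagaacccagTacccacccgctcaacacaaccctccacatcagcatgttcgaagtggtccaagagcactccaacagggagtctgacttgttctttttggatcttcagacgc
Counted from the 5′ end of the window with the *Bmp8a* base first, the difference is C100T. Over the whole gene, 8.74% of the 50-base windows of *Bmp8a* transcripts also occurred in another gene's transcripts, mostly those of *Bmp8b* and of the predicted gene *Gm17244*. Both were close to the floor of the table, with 0 to 15 counts per library for *Bmp8b* and 2 to 12 for *Gm17244*, against 203 to 459 for *Bmp8a*. With *Bmp8b* counts added to those of *Bmp8a*, the fitted log2 fold change between the groups was −0.36, the same to 2 decimals as without them.

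The libraries held 20774667 to 28515434 estimated counts each, and 15317756 to 20480184 without ribosomal RNA genes. Total counts of the targeted gene were not lower in the mutant-labelled libraries. Total *Fgfr2* counts were 176 to 235 CPM (counts scaled to library size after TMM normalization) in the control-labelled libraries and 273 to 357 CPM in the mutant-labelled libraries, a log2 fold change of 0.67 with an adjusted p of 0.0487 in edgeR's quasi-likelihood test. All fits gave a higher level in the mutant-labelled libraries, but that adjusted p was not stable, and was above 0.05 in 8 of 10 fits that left out 1 library. The paper describes the floxed allele as giving a receptor copy without function, which a total count per gene does not measure. Since the table gives 1 value per gene and none per exon, the presence of the floxed exons cannot be read from it, and every direction below is between libraries as labelled. Other genes separated the groups too, and 1.48% of all genes tested had groups without overlap. The mineralization enzyme gene *Alpl* was lower in the mutant-labelled libraries without overlap (log2 fold change −0.38), the only 1 of 23 osteoblast markers to be so. *Tnmd* and *Matn4* were higher without overlap (0.58 and 0.64). They were 2 of 9 tendon and ligament markers, of which 3 had a fitted difference below 0. *Col2a1* and *Col9a2* of the chondrocyte markers (0.88 and 0.37) and *Lyz2* of the macrophage markers (0.63) were also higher without overlap. None of these genes passed the adjusted test. The osteoblast markers *Sp7*, *Ibsp* and *Alpl* were abundant in every library, at no less than 168, 827 and 320 CPM, and the epidermal keratin *Krt14* was near 0, at 0.0442 to 0.636 CPM. Mutant-labelled replicate 2 stood apart. Its 11 neuronal markers summed to 722 CPM, and those of the other libraries to 93.6 to 304 CPM. It also lay at the end of the first principal component, which held 24.2% of the variance.

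The labels do not say which samples came from separate litters. A figure legend of the paper speaks of littermate pairs, but the labels do not name them, and the main fit was unpaired. The p-values set the difference between the groups against the spread within them, over these 10 samples. In these bulk libraries, fewer cells of a type and less RNA per cell cannot be told apart.

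Compared between the 2 groups, none of the 10 ligand genes passed an adjusted p of 0.05 in edgeR's quasi-likelihood test, against 0.0184% of all 16267 genes tested (3 genes). None passed in DESeq2, in which 0.597% of genes did, or in limma voom, run here with a quality weight for each library. At an unadjusted p of 0.05, 1 member passed, *Bmp8a*, which was lower in the mutant-labelled libraries. Over all genes tested, 7.49% passed that limit in either direction, 3.82% as lower and 3.68% as higher, so 1 of 10 is near the background. The fitted difference was below 0 for 6 members and above 0 for 4, beside 49.7% of all genes below 0. The median over the members was −0.078 on the log2 scale, and over all genes 0.00073. For no member were the 2 groups free of overlap, while 1.48% of all genes had groups that did not overlap.

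**Figure D1:**
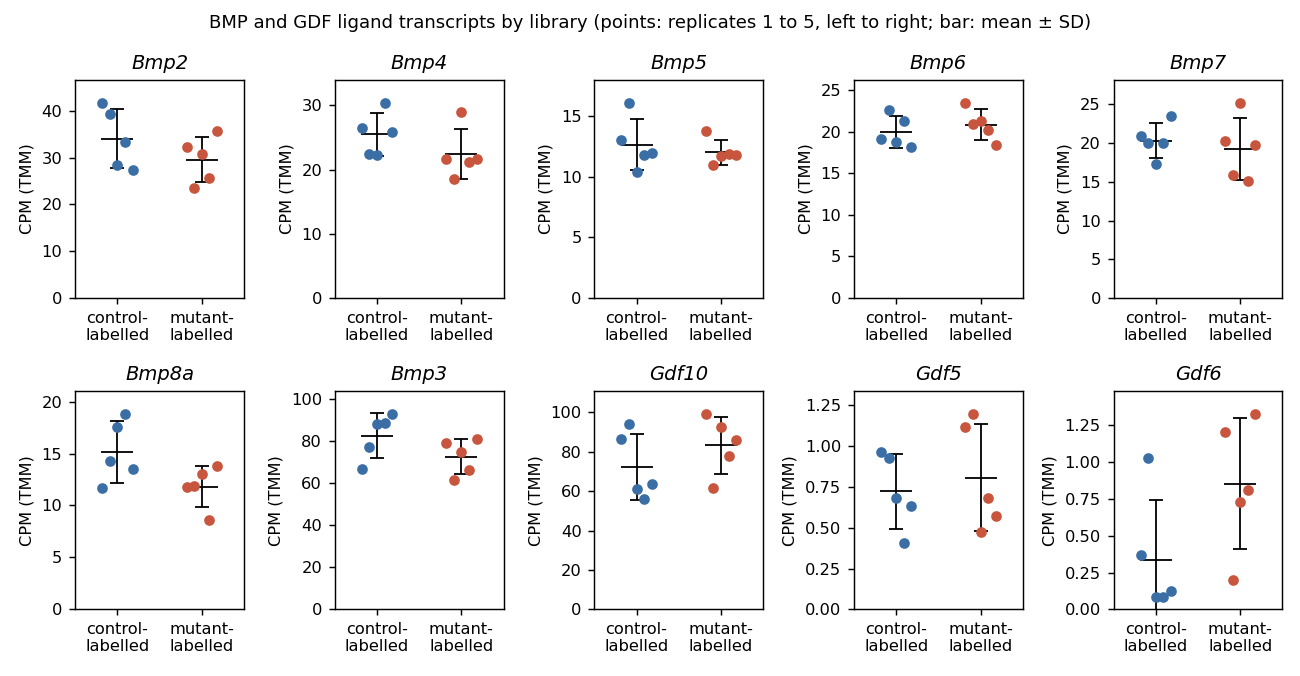
Level of each ligand transcript in CPM (TMM-normalized, linear axes from 0) in the 5 control-labelled and 5 mutant-labelled libraries, with points in replicate order and a bar for the mean ± SD. The groups overlap in all 10 panels, and *Gdf5* and *Gdf6* lie below 1.4 CPM.

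*Bmp2* and *Bmp4* are close relatives, and both proteins are strong inducers of osteoblast differentiation. *Bmp2* (chromosome 2, GRCm38 133552159 to 133562885, plus strand) was measured at 41.6, 39.2, 28.5, 33.4 and 27.4 CPM in control-labelled replicates 1 to 5 and at 32.2, 23.6, 30.8, 25.7 and 35.6 CPM in mutant-labelled replicates 1 to 5. In the mutant-labelled group 2 libraries lay under the lowest control-labelled value, and the groups overlapped over most of their range. A log2 fold change of −0.20 was fitted, with a 95% interval of −0.51 to 0.10 (adjusted p = 0.759, edgeR). It was −0.13 without mutant-labelled replicate 2, and leaving out 1 library at a time gave −0.28 to −0.11.

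*Bmp4* (chromosome 14, 46383520 to 46390669, minus strand) was at 26.5, 22.5, 22.3, 30.4 and 25.9 CPM in the control-labelled libraries and at 21.7, 18.6, 29.0, 21.2 and 21.7 CPM in the mutant-labelled ones. Of the mutant-labelled libraries, 4 lay under every control-labelled library, and replicate 3 lay within the upper part of the control range. Its log2 fold change was −0.19 (95% interval −0.45 to 0.08, edgeR adjusted p = 0.745), and it depended on single libraries. Without mutant-labelled replicate 3 it was −0.29 (unadjusted p = 0.0128), without mutant-labelled replicate 2 it was −0.12 (unadjusted p = 0.330) and without control-labelled replicate 4 also −0.12 (unadjusted p = 0.353).

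The group of *Bmp5*, *Bmp6*, *Bmp7* and *Bmp8a* encodes ligands that are alike in sequence and of which BMP7 is the one long studied as a bone-inducing factor. *Bmp5* (chromosome 9, 75775364 to 75900310, plus strand), the gene mutated in short-ear mice, was at 13.1, 16.1, 10.4, 11.8 and 11.96 CPM in the control-labelled libraries. The mutant-labelled libraries reached at most 13.8 CPM, and all lay within the control range. Its log2 fold change was −0.08 (95% interval −0.32 to 0.17), and −0.04 without mutant-labelled replicate 2. Without control-labelled replicate 2 it was 0.03, of the other sign. *Bmp6* (chromosome 13, 38345107 to 38500302, plus strand) was at 18.1 to 22.6 CPM and at 18.4 to 23.5 CPM, with a coefficient of variation of 9.49% and 8.71% in the groups. For *Bmp6* the log2 fold change was 0.06, and the 95% interval was −0.12 to 0.24. It was 0.026 without mutant-labelled replicate 1 and 0.12 without control-labelled replicate 2.

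*Bmp7* (chromosome 2, 172868012 to 172940321, minus strand) was at 17.3 to 23.5 CPM in the control-labelled libraries. The mutant-labelled values of 20.2, 15.9, 25.2, 15.2 and 19.7 CPM fell on both sides of that range, 2 below it and 1 above it. Its log2 fold change was −0.08 (95% interval −0.37 to 0.21), and −0.01 without mutant-labelled replicate 2. Without mutant-labelled replicate 4 it was 0.0032, of the other sign.

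*Bmp8a* (chromosome 4, 123312645 to 123343252, minus strand) is best known for its role in male germ cells. In control-labelled replicates 1 to 5 it was at 11.6, 14.2, 17.6, 18.8 and 13.5 CPM, and in mutant-labelled replicates 1 to 5 at 11.7, 11.8, 13.01, 8.64 and 13.8 CPM. Control-labelled replicates 2, 3 and 4 were above every mutant-labelled library, control-labelled replicates 1 and 5 lay among the mutant-labelled values, and mutant-labelled replicate 4 was under the whole control range. Group means were 15.1 ± 2.94 CPM and 11.8 ± 1.96 CPM (SD, n = 5 each). The log2 fold change was −0.36 with a 95% interval of −0.69 to −0.03, an unadjusted p of 0.0343, rank 867 among all genes, and an adjusted p of 0.644 in edgeR. The two-sided exact permutation test over all 252 groupings of the libraries gave p = 0.0794, where the smallest p it can give is 0.00794. Leaving out 1 library at a time gave fold changes from −0.43 to −0.26, and the unadjusted p ran from 0.0127 to 0.0977, above 0.05 without control-labelled replicate 3 or 4 or without mutant-labelled replicate 1, 2 or 4. It was also above 0.05 in limma voom (unadjusted p = 0.0651).

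The fitted differences of the osteoblast markers had the same sign as that of *Bmp8a*. All 23 were below 0, and 11 of them passed an unadjusted p of 0.05, beside 3.82% of all genes as lower. None of the 23 passed the adjusted test, and none was at a level of 0. Their summed level, most of it *Col1a1* and *Col1a2*, was 108120 to 127224 CPM in the control-labelled libraries and 89989 to 129506 CPM in the mutant-labelled ones. The osteoblast score, the mean log2 CPM of the 23 genes, was 8.09 to 8.41 and 7.89 to 8.16. With that score as a covariate the fitted difference of *Bmp8a* was −0.02 with a p of 0.913 in edgeR. The same covariate gave −0.09 for *Bmp2*, 0.12 for *Bmp4*, −0.27 for *Bmp5*, −0.04 for *Bmp6* and 0.09 for *Bmp7*. The values of *Bmp4*, *Bmp6* and *Bmp7* were of the other sign than without it. The score was itself lower in most mutant-labelled libraries, so the parts of score and label in these differences cannot be told apart. With the score of the neuronal list as covariate instead, the difference of *Bmp8a* was −0.29, that of *Bmp3* −0.13 and that of *Gdf6* 1.34.

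**Figure D2:**
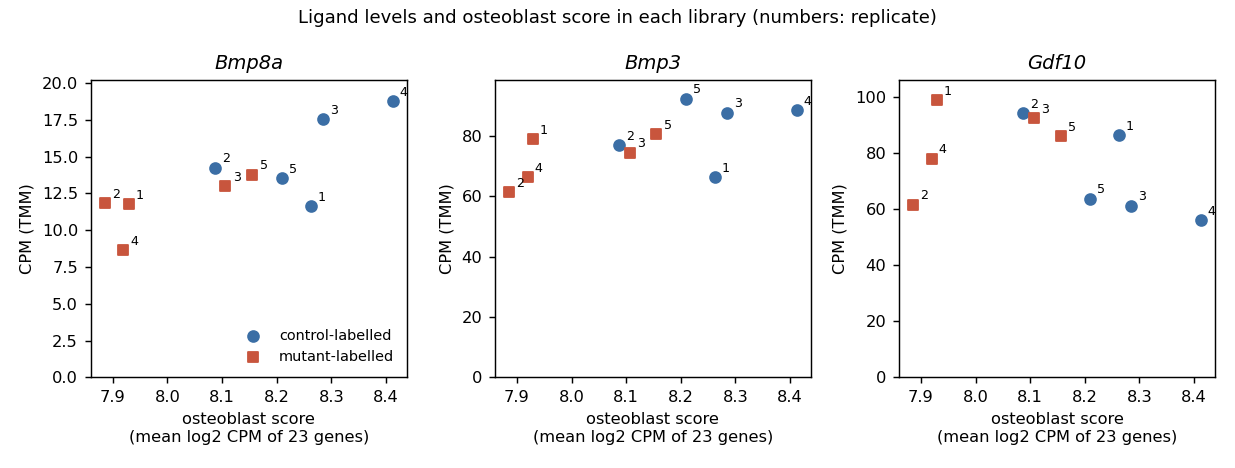
CPM of *Bmp8a*, *Bmp3* and *Gdf10* against the osteoblast score of the same library, with the replicate number beside each point. Control-labelled replicates 3 and 4 are highest for *Bmp8a* and lowest or next to lowest for *Gdf10*, and mutant-labelled replicates 1, 2 and 4 hold the lowest scores.

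*Bmp3* and *Gdf10* (also called BMP3B) form a branch of the family, and BMP3 is known as an inhibitor of bone formation. *Bmp3* (chromosome 5, 98854415 to 98884396, plus strand) was at 66.5, 77.0, 87.7, 88.6 and 92.5 CPM in the control-labelled libraries and at 79.0, 61.4, 74.6, 66.4 and 80.7 CPM in the mutant-labelled ones. Control-labelled replicates 3, 4 and 5 were above every mutant-labelled library. Its log2 fold change was −0.19 with a 95% interval of −0.41 to 0.03 (adjusted p = 0.690, edgeR), and with the osteoblast score as covariate it was −0.01. It was −0.13 without mutant-labelled replicate 2 and −0.25 without control-labelled replicate 1 (unadjusted p = 0.0173).

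*Gdf10* (chromosome 14, 33923587 to 33937983, plus strand) was at 86.4, 94.3, 61.1, 56.0 and 63.8 CPM in the control-labelled libraries and at 99.0, 61.5, 92.4, 77.9 and 86.1 CPM in the mutant-labelled ones. The control-labelled libraries fell into a high pair, replicates 1 and 2, and 3 lower libraries, and mutant-labelled replicate 2 was the only one of its group as low as these. The log2 fold change was 0.20 (95% interval −0.15 to 0.56), and it depended on single libraries. It was 0.30 without mutant-labelled replicate 2 (unadjusted p = 0.0672, edgeR) and 0.12 without control-labelled replicate 4 (unadjusted p = 0.456). With the osteoblast score as covariate it was 0.07.

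*Gdf10* and *Bmp3* did not vary together among the control-labelled libraries. The ratio of *Gdf10* CPM to *Bmp3* CPM, which carries the lengths of both genes as a constant, was 1.30 and 1.22 in control-labelled replicates 1 and 2 and 0.697, 0.632 and 0.690 in replicates 3, 4 and 5. In the mutant-labelled libraries it was 1.25, 1.00, 1.24, 1.17 and 1.07. The 3 low ratios were below all other libraries. The ratio was chosen after the values were seen and was not tested.

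*Gdf5* and *Gdf6* encode ligands known for joint formation, and *Gdf6* is also required for the coronal suture of the mouse. *Gdf5* (chromosome 2, 155941023 to 155945367, minus strand) rested on 10 to 30 counts per library. It was at 0.964, 0.926, 0.680, 0.409 and 0.634 CPM in the control-labelled libraries and at 1.11, 1.19, 0.471, 0.681 and 0.574 CPM in the mutant-labelled ones. For *Gdf5* the log2 fold change was 0.15 with a wide 95% interval of −0.57 to 0.87. The coefficient of variation between libraries was 31.5% and 40.5% in the groups, and without mutant-labelled replicate 2 the log2 fold change was −0.03. With the osteoblast score as covariate the log2 fold change was −0.77 (unadjusted p = 0.0911, edgeR).

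*Gdf6* (chromosome 4, 9844372 to 9862345, plus strand) rested on 10, 30, 2, 2 and 3 counts in the control-labelled libraries and on 26, 5, 17, 19 and 30 counts in the mutant-labelled ones. In CPM these were 0.371, 1.03, 0.0850, 0.0817 and 0.127 against 1.21, 0.199, 0.728, 0.809 and 1.32. In each group 1 library lay with the other group, control-labelled replicate 2 being high and mutant-labelled replicate 2 low. The log2 fold change of 1.26 was the highest in size among the members, with an interval of −0.21 to 2.73 (unadjusted p = 0.0856, adjusted p = 0.687, edgeR), and the exact permutation test gave p = 0.0714. Without control-labelled replicate 2 the log2 fold change was 2.29 (unadjusted p = 0.00341), and without mutant-labelled replicate 2 it was 1.52 (unadjusted p = 0.0330). It was 1.02 without control-labelled replicate 4 (unadjusted p = 0.163), and with the osteoblast score as covariate it was 0.78 (unadjusted p = 0.380). The adjusted p stayed at 0.324 or above in every alternative run.

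**Figure D3:**
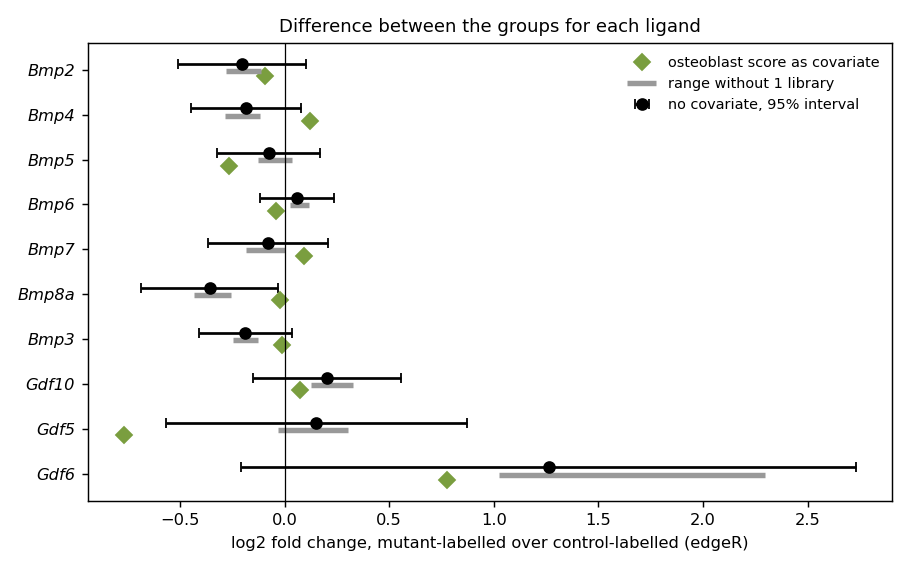
Log2 fold change of each ligand gene, mutant-labelled over control-labelled (edgeR), with its 95% interval, the range after leaving out 1 library at a time and the value with the osteoblast score as covariate. The intervals of 9 members include 0, and that of *Bmp8a* ends at −0.03.

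Levels of different genes were compared only per kilobase of annotated exon. In the control-labelled libraries *Gdf10* was at 13.9 ± 3.25 CPM per kilobase (SD, n = 5), followed by *Bmp4* at 11.3 ± 1.48, *Bmp3* at 11.1 ± 1.44 and *Bmp2* at 9.57 ± 1.78. The per-library ranges of these 4 overlapped from each to the next, so their order is not resolved. They were followed by *Bmp8a* at 6.30 ± 1.22, *Bmp6* at 5.13 ± 0.486 and *Bmp7* at 5.06 ± 0.557 CPM per kilobase, and the ranges overlapped from each to the next here too, and between *Bmp2* and *Bmp8a*. *Bmp5* was at 3.15 ± 0.529, below the range of *Bmp7*, and *Gdf5* and *Gdf6* were at 0.311 ± 0.0982 and 0.0959 ± 0.114. In the mutant-labelled libraries *Bmp8a* and *Bmp6* traded places, and with the length of the longest transcript in place of all exons *Bmp4* and *Bmp3* did.

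**Figure D4:**
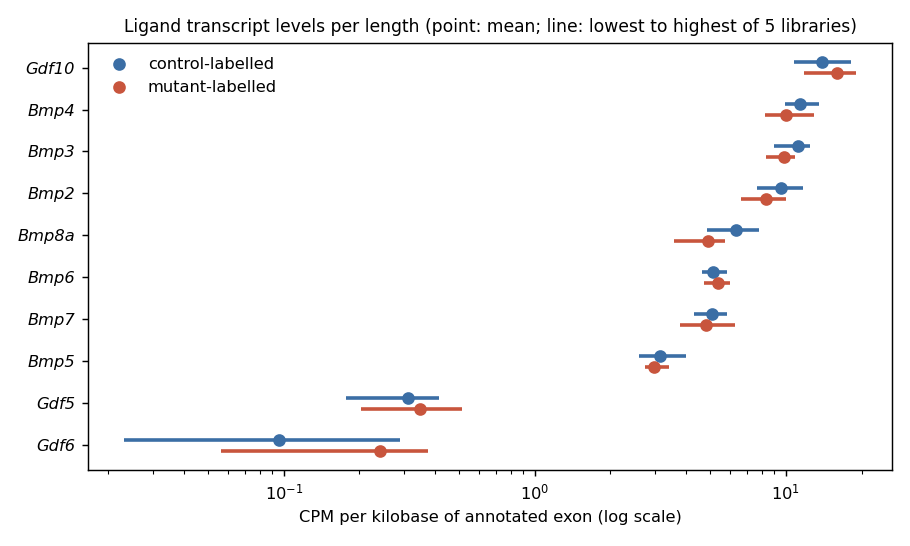
CPM per kilobase of annotated exon (log axis) for the 10 ligand genes, with the mean as a point and a line from the lowest to the highest of 5 libraries in each labelled group. In the control-labelled group the ranges of the 4 highest genes overlap, in the mutant-labelled group *Gdf10* lies above *Bmp3* and *Bmp2*, and *Gdf5* and *Gdf6* lie far below the rest.

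Summed over the 10 members, the level was 60.8 to 70.9 CPM per kilobase in the control-labelled libraries. In the mutant-labelled libraries it was 52.6 to 69.8 CPM per kilobase, lowest in replicates 2 and 4. *Gdf10* took 20.9% of the control-labelled sum on average and 25.4% of the mutant-labelled one, and *Bmp8a* took 9.60% and 7.85%. Some members overlap other genes. In the annotation, 1878 exon bases of *Bmp5* and 936 of *Gdf5* lie opposite an antisense transcript, *Gm26903* and *Gm15557*, neither of which is a row of the count table, and 224 of *Bmp6* lie opposite *Txndc5*, which had 5918 to 8577 counts per library. No source used here says whether strand was used in counting, and whether reads in these bases were counted for the other strand was not tested.

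Of the other genes of the family, 4 of 11 could be tested. *Gdf1*, *Gdf7* and *Gdf9* had fitted differences above 0 and *Gdf11* just below it, and none passed an unadjusted p of 0.05. *Bmp10* and *Gdf2* were not in the table, and *Bmp8b* was at 0 to 0.596 CPM.

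The listed type I and type II receptors did not pass the test. *Bmpr1a*, a main type I receptor for BMP2 and BMP4, was at 95.1 to 105 CPM in the control-labelled libraries and at 84.5 to 108 CPM in the mutant-labelled ones, with a log2 fold change of 0.007. *Bmpr2*, the BMP type II receptor, had a log2 fold change of 0.05. Of the 4 type I receptors 2 were below 0 and 2 above, of the 3 type II receptors 1 and 2, and none passed an unadjusted p of 0.05. Among 5 tested co-receptors and pseudoreceptors, *Bambi*, a decoy that lacks a kinase domain, had a lower fit (log2 fold change −0.25, unadjusted p = 0.0238) and the BMP co-receptor *Rgma* a higher one (0.34, unadjusted p = 0.00239), and neither passed the adjusted test in edgeR.

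Of the 6 SMAD genes tested, 4 were below 0 and 2 above. *Smad1* and *Smad5*, the receptor-activated SMADs of this pathway, had log2 fold changes of 0.05 and 0.06. *Smad9*, the third of them, was at 14.6 to 16.8 CPM in the control-labelled libraries and at 9.46 to 15.7 CPM in the mutant-labelled ones (log2 fold change −0.27, unadjusted p = 0.0375, adjusted p = 0.649, edgeR). It was −0.18 without mutant-labelled replicate 2.

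Most feedback and target genes of BMP signalling had fitted differences below 0. Of 16 tested, 13 had a fitted difference below 0 and 5 passed an unadjusted p of 0.05, all 5 as lower: *Nog*, *Smad9*, *Dlx3*, *Bambi* and *Hey1*. Over all genes 49.7% were below 0 and 3.82% passed as lower. The list was chosen with earlier results of these data known, so its counts are not independent of them. The call of *Hey1* (unadjusted p = 0.0492, edgeR) was not followed over the alternatives. On leaving out 1 library the unadjusted calls of *Dlx3* and *Smad9* were each lost in 7 of 10 fits and that of *Bambi* in 5 of 10, and those of *Dlx3* and *Smad9* were also lost in limma voom. None passed the adjusted test. The median was −0.09 on the log2 scale against 0.00073 over all genes. *Id1*, the usual direct target, was at 26.1 to 35.8 CPM and 26.9 to 36.8 CPM in the groups, with a log2 fold change of −0.03. *Dlx3*, a homeobox gene active in osteoblasts, was at 51.0 to 61.6 CPM and 40.9 to 60.6 CPM (log2 fold change −0.26). With the osteoblast score as covariate, *Bambi* was at 0.06, *Dlx3* at 0.03 and *Smad9* at −0.13, and *Nog* was at −0.32.

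*Nog*, which encodes the antagonist Noggin, was at 19.8 to 22.4 CPM in the control-labelled libraries and at 15.7 to 17.4 CPM in the mutant-labelled ones, without overlap. The log2 fold change was −0.36 with a standard error of 0.056 and an adjusted p of 0.119 in edgeR, and the exact permutation test gave p = 0.00794, the smallest it can give. *Nog* passed the adjusted test in DESeq2 (adjusted p = 0.000659), and over all alternatives its adjusted p ran from that value to 1.00, with the osteoblast score as covariate. Of the 15 secreted antagonists tested, 8 were below 0 and 7 above, beside 49.7% of all genes below 0. *Sost*, an osteocyte antagonist of WNT signalling with BMP-binding relatives, and *Fstl3* were lower at an unadjusted p under 0.05 (log2 fold changes −0.57 and −0.24). The unadjusted call of *Sost* was lost without control-labelled replicate 4 or mutant-labelled replicate 5, and that of *Fstl3* was lost in DESeq2, in limma voom, with other filters and in most fits without 1 library. *Chrd*, which encodes Chordin, was higher (0.25, unadjusted p = 0.0106). With the osteoblast score as covariate *Sost* was at −0.08, *Fstl3* at −0.13, *Chrd* at 0.24 and the co-receptor *Rgma* at 0.07.

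Of 6 ligand-processing and antagonist-cleaving proteases tested, 4 were below 0 and 2 above. *Pcsk5*, a proprotein convertase that cuts TGF-beta family precursors, was at 52.9 to 64.1 CPM in the control-labelled libraries and at 64.0 to 89.9 CPM in the mutant-labelled ones (log2 fold change 0.40, unadjusted p = 0.00104, adjusted p = 0.307, edgeR). It passed the adjusted test in DESeq2 (adjusted p = 0.0123), and over all alternatives its adjusted p ran from that value to 1.00, with the osteoblast score as covariate. *Furin* had a log2 fold change of −0.03. Several genes stand in 2 of these lists, among them *Nog*, *Bambi* and *Smad9*, so the lists are not separate counts.

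**Figure D5:**
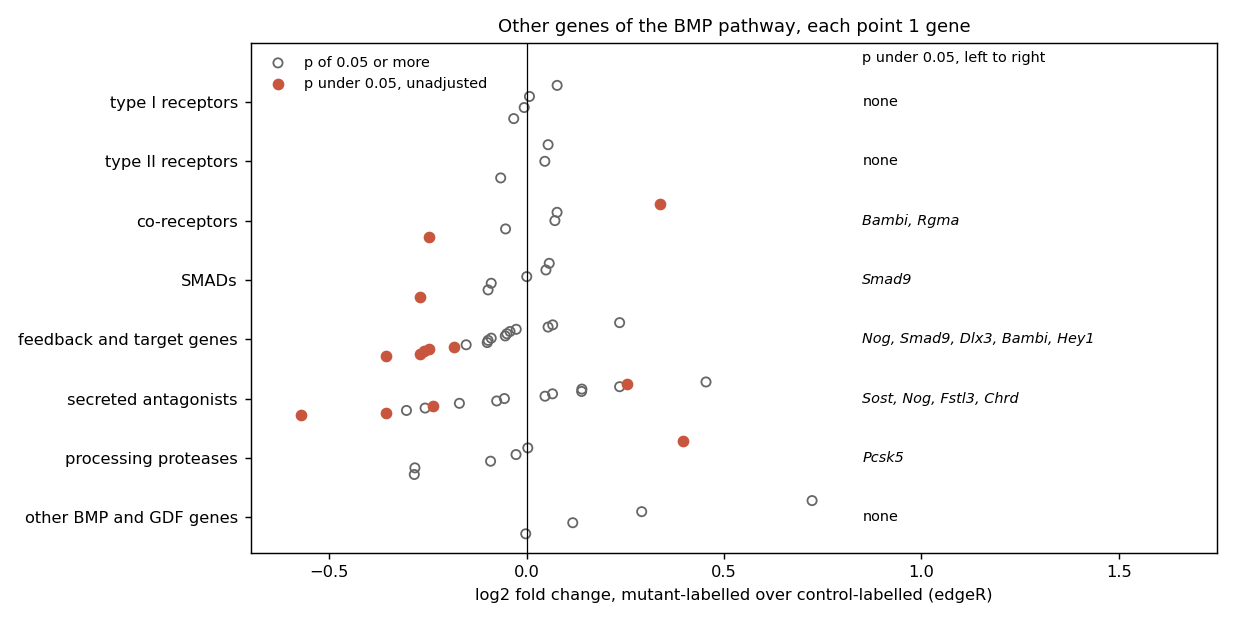
Log2 fold change, mutant-labelled over control-labelled (edgeR), of every tested gene of 8 lists of BMP pathway genes, with genes at an unadjusted p under 0.05 filled and named at the right. Receptors lie within 0.08 of 0, and 13 of 16 feedback and target genes lie below 0.

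Markers of other cell types were also compared, and none of the neuronal, tendon and ligament, chondrocyte, osteoclast or macrophage markers passed the adjusted test. All 11 neuronal markers were fitted above 0 in the mutant-labelled libraries, 2 of them at an unadjusted p under 0.05, beside 3.68% of all genes as higher, with summed levels of 93.6 to 227 CPM against 98.4 to 722 CPM and none at 0. Among tendon and ligament markers 6 of 9 were above 0 and 4 passed that limit, with sums of 3002 to 3757 CPM against 2927 to 4234 CPM. Among chondrocyte markers 8 of 10 tested were above 0 and 4 passed it, with sums of 1374 to 1696 CPM against 1283 to 1688 CPM. Most of the chondrocyte sum was *Col11a2*, which was fitted below 0 (group means of 1188 and 1049 CPM). Most of the tendon and ligament sum was *Col12a1* (2779 and 3110 CPM), so these sums say little of the other markers. Among osteoclast markers 9 of 10 were below 0 and 1 passed an unadjusted p of 0.05 as lower, beside 3.82% of all genes. Among macrophage markers 7 of 9 were below 0, and 1, *Lyz2*, passed as higher. Apart from the neuronal score given above for 3 members, the part of these markers in the ligand values was not tested.

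For the 3 members with the lowest p, the genes nearest in profile were taken as those with the lowest mean absolute difference of centred log2 CPM over the 10 libraries, at a mean of at least 1 CPM. For *Bmp8a* they were *Ank* (mean difference 0.0862), a pyrophosphate transporter of mineralizing tissue, *Mettl24* (0.0949) and *Tcim* (0.105). For *Gdf6* they were *Gsc* (0.569), a homeobox gene of craniofacial mesenchyme, *Ostn* (0.656) and *Csmd3* (0.674), which are far looser matches. For *Bmp3* they were *Plekhm1* (0.0554), *Antxr2* (0.0615) and *Junb* (0.0617).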

How the data were processed

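Bulk RNA-seq of the AF at E18.5 covered 5 control-labelled and 5 mutant-labelled libraries (stranded kit, 50-base single reads). The authors deposited 1 table of estimated counts per gene, not scaled between libraries, of which 66.4% of values were whole numbers. The submitters' processing notes name Partek and mm10, and the aligner, counting tool and strand setting are not given in the sources used here. Of 22533 symbols, 22296 had the GENCODE M21 start and end on GRCm38. The design assumed counts, so estimated counts were rounded to whole numbers. Genes kept by edgeR's expression filter (16267, with 6813 left out) were TMM-normalized and tested with edgeR 4.0.16 (R 4.3.3) in the quasi-likelihood test with no covariate and Benjamini-Hochberg adjustment over all genes tested, threshold 0.05. Log2 CPM used a prior count of 0.5. Single genes were also compared by two-sided exact permutation tests. Alternatives used DESeq2 1.42.0 and limma 3.58.1, other filters and scalings, covariates and leaving out each library. In limma, voom was run with quality weights, so the libraries did not count equally. The scripts were tested on simulated data. The genes named were all members, *Fgfr2*, up to 4 genes per pathway list with the lowest unadjusted p under 0.05 and 6 genes fixed by name. *Hey1*, *Furin*, *Gdf1*, *Gdf7*, *Gdf9*, *Gdf11*, *Gdf2*, *Bmp10* and the marker genes were named outside that rule. Members and lists were chosen with earlier results of these data known. Totals of 20774667 to 28515434 counts per library limit the precision for genes of few counts.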

Additional observations from a re-analysis of the deposited data

Results flagged for a closer look

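Among the 50 groups of 5 libraries examined, 2 values stood farther from the rest of their group than Dixon's 95% limit allows, and chance alone flags about 1 in 20 groups. None of these values belonged to a ligand gene. *Dlx3* was at 60.6 CPM in mutant-labelled replicate 5, with the other 4 mutant-labelled libraries at 40.9 to 45.9 CPM. *Smad9* was at 16.8 CPM in control-labelled replicate 2, with the others of its group at 14.6 to 15.2 CPM.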

How the results depend on the processing

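None of the 10 ligand genes passed the adjusted test under any alternative run, and 1 (*Bmp8a*) passed at an unadjusted p of 0.05. That count was 0 with the osteoblast score and with the replicate block, and 2 with library size alone (*Bmp3* and *Bmp8a*). It was 1 in limma voom with library weights, where it was *Gdf6* (log2 fold change 1.95, unadjusted p = 0.0101). On leaving out 1 library it ran from 0 (without control-labelled replicate 3 or 4 or mutant-labelled replicate 1 or 4) to 2 (without control-labelled replicate 1 or 2 or mutant-labelled replicate 3). The count of all genes called was 3. It was 1 with library size alone, with the level of *Xist*, the RNA of the inactive X chromosome, as covariate, with the osteoblast score and with the replicate block, 97 in DESeq2's Wald test and 1219 unadjusted, and it ran from 1 to 6 on leaving out 1 library. Over 203 fits of single members 196 kept their direction. The osteoblast score gave values of the other sign for *Bmp4* (0.12), *Bmp6* (−0.042), *Bmp7* (0.094) and *Gdf5* (−0.77), and for *Bambi* (0.061), *Dlx3* (0.026), *Smad1* (−0.047) and *Id1* (0.078). Leaving out 1 library gave −0.13 to 0.034 for *Bmp5*, −0.19 to 0.0032 for *Bmp7*, −0.032 to 0.30 for *Gdf5*, −0.088 to 0.032 for *Id1*, −0.024 to 0.065 for *Bmpr1a* and −0.0014 to 0.11 for *Bmpr2*. With library size alone *Bmpr1a* was at −0.043 and *Bmpr2* at −0.0050, and *Id1* was at 0.021 in limma voom. The cause was not tested. *Gdf6* could not be fitted where at least 10 counts were required in every library. *Fgfr2* kept its direction (log2 fold changes of 0.63 to 0.75) but did not pass the adjusted test with library size alone (adjusted p = 0.152), no filter (0.0557), the replicate block (0.427), the *Xist* covariate (0.0625) or the osteoblast score (1.00), or in 8 of 10 fits without 1 library (0.0831 to 0.260).

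Replicate numbers gave no pairing. Same-numbered libraries deviated together with correlations of −0.20, 0.14, −0.21, 0.03 and −0.14, and no mutant-labelled library correlated best with its own number. With the replicate number as a block, *Bmp8a* was at −0.35 (unadjusted p = 0.0665), *Gdf6* at 1.62 and 0 members were called. Counts of 2 to 30 limit *Gdf5* and *Gdf6*.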
